A study of Mus musculus with 28 samples.

Results

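The ATP-binding cassette (ABC) transporter family was followed through the chemical conversion of mouse fibroblasts into endoderm progenitor cells and hepatocyte-like cells. Members were taken by name, as every gene whose symbol is Abc, a letter from a to g, a number and at most 1 further letter. The name pattern was met by 50 genes, of which 2 are not analysed here, so the family described holds 48 of the 31673 genes of the count table. All 48 members were placed on the GRCm38 assembly (mm10) with GENCODE M21, on 17 chromosomes.

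RNA was sequenced in 28 libraries of 9 cell groups, and the series asks whether fibroblasts can be turned into the endoderm lineage by chemical means. The starting cells were embryo fibroblasts of stage E13.5 (MEF, 3 libraries) and dermal fibroblasts of newborn mice (MNF, 2 libraries), both at passage 2. Chemically induced endoderm progenitor cells (ciEPCs) came from MEF (MEF_ciEPC, 10 libraries of 2 numbered series, passages 1 to 22) or MNF (MNF_ciEPC, 2 libraries, passages 2 and 3), and the hepatocyte-like cells (ciHeps) came from ciEPCs of passage 3 to 10 (MEF_ciHep, 3 libraries, and MNF_ciHep, 2 libraries). The comparison cells were embryonic stem cells at passage 5 (ESC, 2 libraries), progenitors made from stem cells of passage 10 to 15 (ESC_EPC, 2 libraries) and primary hepatocytes of adult liver at passage 0 (pHep, 2 libraries). Cells of all 9 groups carried Oct4-GFP transgenic alleles from CBA/CaJ X C57BL/6J mice. MEF, ESC and the cells made from them also had 129Sv/Jae females in the cross, and MNF, its derivatives and pHep did not, so that fibroblast origin and strain cannot be told apart. The compounds are not named in the labels, and the source name of MNF_ciEPC reads MEF, against its title and cell type, which were followed. The labels do not say whether replicates came from separate animals or cultures, so the p-values measure the spread between these samples, which may be technical.

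ABC proteins bind and hydrolyse ATP, and most use that energy to move a substrate across a membrane. In the hepatocyte they export drugs, conjugates, phospholipid and sterol into bile or blood, and the canalicular and the sinusoidal membrane carry different members. Other members work in mitochondria, peroxisomes or lysosomes, and the E and F subfamilies have no membrane part and act on ribosomes and translation. Several hepatic members are known targets of nuclear receptors such as the pregnane X receptor (Nr1i2) and the liver X receptors (Nr1h3, Nr1h2).

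The libraries held between 1439670 and 6133147 counts. The read or fragment length implied by the files fell into 3 classes. The shortest, 49.5 to 50.6 bases, held pHep, MEF_ciEPC and the ciHep groups. The next, 74.3 to 74.5 bases, held ESC, the fibroblasts and MNF_ciEPC, and ESC_EPC had 187 to 196 bases. A comparison across these classes, such as MEF_ciEPC against MEF, cannot separate library type from cell type. The library labelled MEF_ciEPC series 2 passage 22 had a summed level of 6 pluripotency markers of 5736 CPM (counts scaled to a common library size), against 4264 to 4786 CPM in ESC and 3.61 to 20.8 CPM in the other 9 MEF_ciEPC libraries, and was kept apart, so that MEF_ciEPC below means the other 9. It lay outside the range of those 9 for 20 of 41 tested members (48.8%, against 55.4% of all tested genes) and nearer to ESC for 24 (58.5%, against 68.9%). MNF_ciHep nearly lacked the 8 hepatocyte markers (summed level 16.9 to 56.2 CPM, with Serpina1a, Cps1 and Cyp2e1 at 0), against 7396 to 15475 CPM in MEF_ciHep and 17085 to 30844 CPM in pHep. The same MNF_ciHep libraries held 3073 to 6587 CPM of 8 fibroblast markers, against 73.8 to 165 CPM in MEF_ciHep, so the label hepatocyte-like was not borne out by these markers there. In bulk RNA, fewer cells of a type and less RNA per cell cannot be told apart. Markers of other cell types also moved. The 5 cholangiocyte markers summed to 2152 to 3197 CPM in MEF_ciHep, 911 to 2157 CPM in pHep and 140 to 1378 CPM in MEF_ciEPC, the 5 trophoblast markers reached 150 to 1531 CPM in MEF_ciHep, and pHep held 3250 to 6794 CPM of 5 keratinocyte markers, nearly all of it Sprr1a. The part of these in the levels below was not tested.

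MEF_ciHep and pHep had the highest mean summed ABC transcript level, and the ribosome and translation members held a smaller share of it there than in every library of the other groups. Summed over the family, levels in TPM, a unit per transcript length that allows genes to be compared, came to 1186 to 1633 in MEF_ciHep and 1057 to 1554 in pHep, against 1106 to 1171 in ESC, 767 to 858 in MNF and 838 to 863 in MNF_ciHep. The 4 ribosome and translation members, Abce1 and Abcf1 to Abcf3, held 18.5 to 21.7% of family TPM in MEF_ciHep and 19.4 to 29.4% in pHep, but 33 to 34.9% in MNF, 44.5 to 46.9% in MNF_ciHep and 51.2 to 57.9% in MEF. The 7 members of the multidrug resistance C group held 25.9 to 37% in MEF_ciHep and 26.3 to 26.5% in pHep, against 21.3 to 22.8% in MNF, the nearest group, 17.9 to 20% in ESC, 9.63 to 20.9% in MEF_ciEPC and 10.4 to 10.7% in MNF_ciEPC. Mean TPM was highest for Abcc3 in both hepatocyte-type groups (193 in MEF_ciHep, 233 in pHep), followed by Abcc5 (143) and Abcb1b (128) in MEF_ciHep and by Abcf1 (115) and Abcb1b (114) in pHep.

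**Figure D1:**
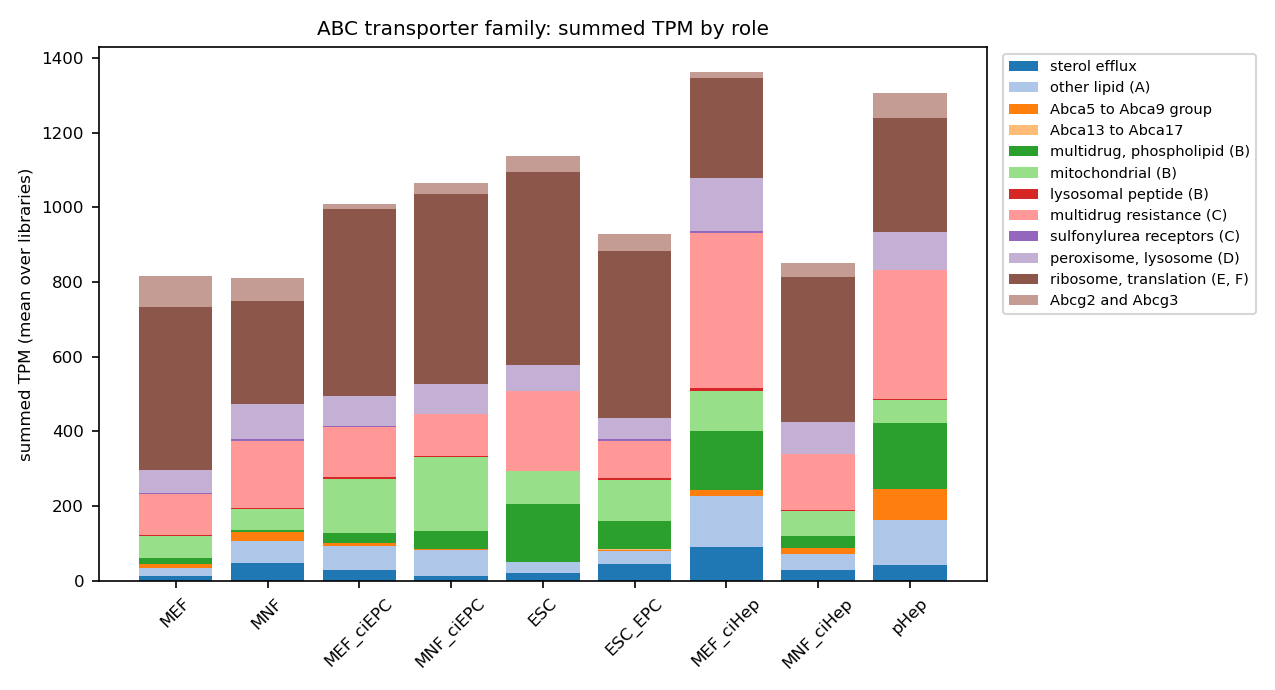
Bars give the family TPM summed within each role and stacked, as the mean over the libraries of each of the 9 groups (9 libraries for MEF_ciEPC). The ribosome and translation members hold a mean of 19.9% of family TPM in MEF_ciHep and 53.6% in MEF, and the C group holds 29.8% in MEF_ciHep and 26.4% in pHep.

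Of the 48 members, 41 passed the filter on low counts and 7 did not. The 7 were Abca13, Abca14, Abca15, Abca16, Abca17, Abcb5 and Abcg3, which held between 0 and 20 counts over all 28 libraries. The group with the highest mean CPM was pHep for 12 of the 41 tested members (29.3%) and MEF_ciHep for 10 (24.4%), while over all 16055 tested genes these shares were 13.3% and 13.2%. MNF_ciHep was highest for 1 member, Abcf1. By TPM pHep was highest for 11 members and MEF_ciHep for 8, and the group was the same as by CPM for 33 of the 41. Members near the floor outside pHep, such as Abcc6, Abcg5 and Abcg8, passed the filter through pHep. That pHep is their highest group is thus no separate result.

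**Figure D2:**
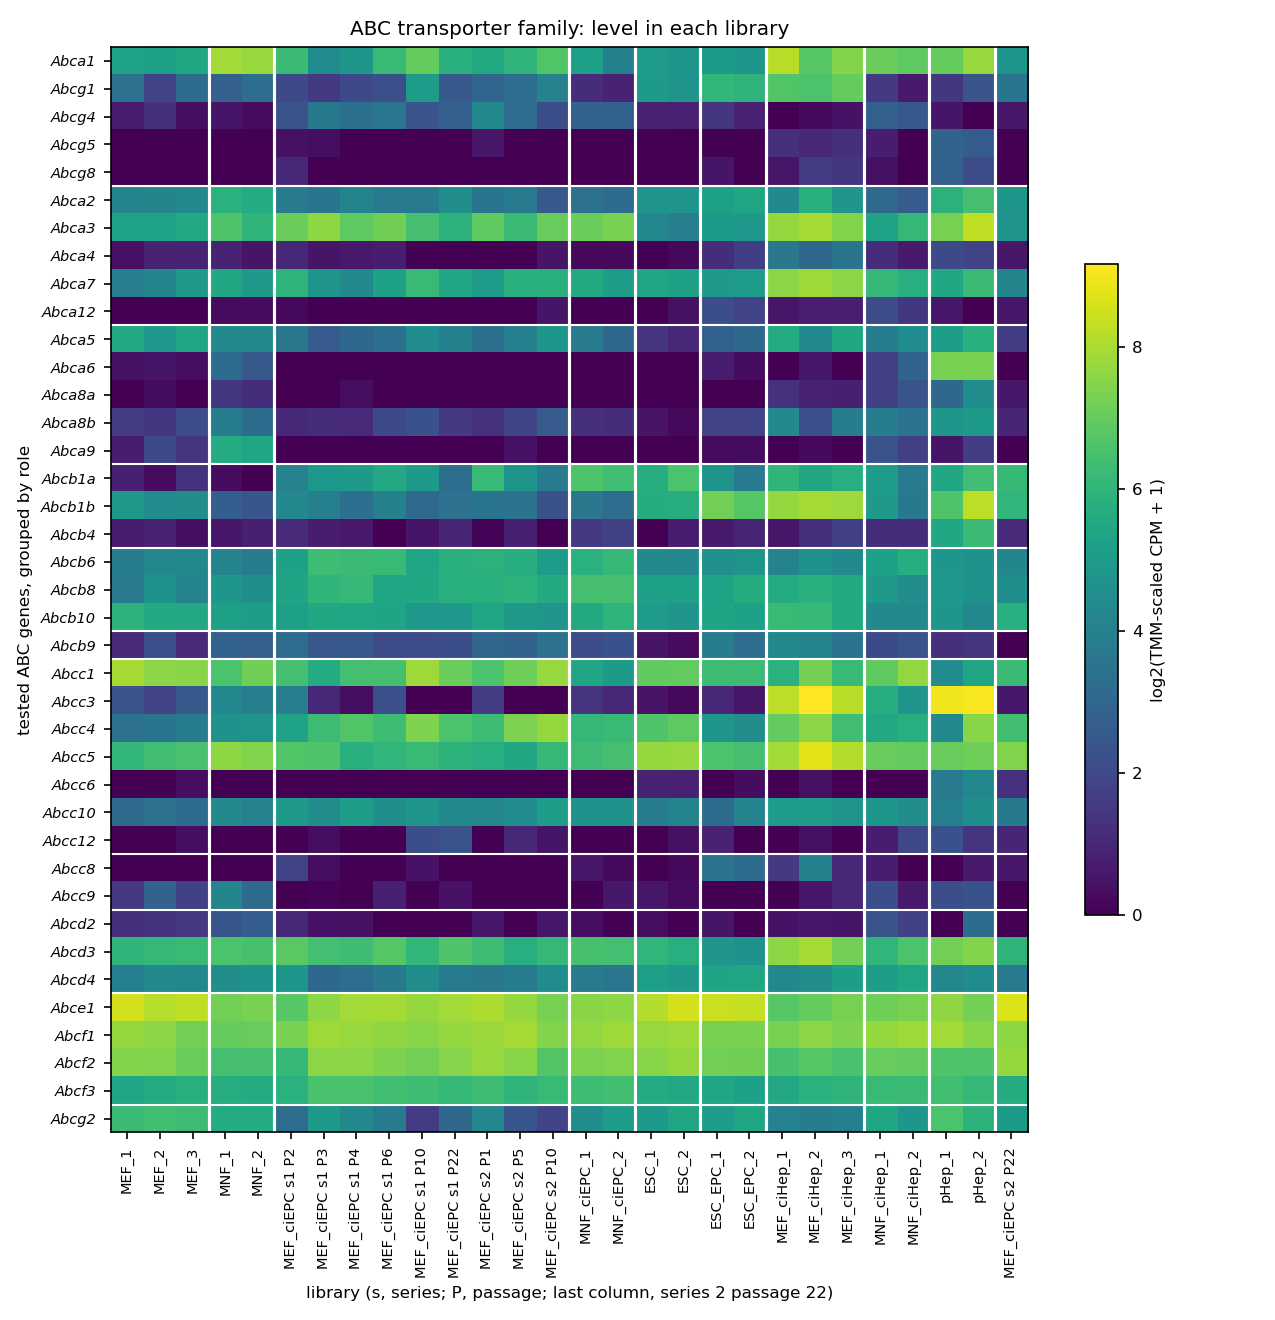
Colour gives log2(CPM + 1) of 39 tested members (rows, grouped by role and divided by white lines) in each of the 28 libraries (columns, grouped by cell type), with the library labelled series 2 passage 22 as the last column. Abcc3 is bright in MEF_ciHep and pHep, Abca6 in pHep, and the Abce1, Abcf1 and Abcf2 rows are bright throughout.

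From MEF to MEF_ciEPC the multidrug transporters Abcb1a and Abcc4 and the mitochondrial Abcb6 and Abcb8 rose and Abcg2 fell. From MEF_ciEPC to MEF_ciHep a larger number rose, among them the exporters Abcc3 and Abcb1b and the sterol transporter Abcg1. The edgeR quasi-likelihood test called a gene at a Benjamini-Hochberg adjusted p under 0.05 over all 16055 genes and a change of at least 2-fold. From MEF to MEF_ciEPC it called 16 of 41 members, 10 higher and 6 lower, where it called 34% of all tested genes (17.1% higher, 16.9% lower). From MNF to MNF_ciEPC it called 18 members, 6 higher and 12 lower, against 40.8% of all genes (18.6% higher, 22.2% lower). From ESC to ESC_EPC it called 12 members, 8 higher and 4 lower, against 34.2% of all genes (18.9% higher, 15.3% lower). These shares of members (39, 43.9 and 29.3%) are near those of all genes. Without ESC replicate 2, 5 members were called between ESC_EPC and ESC, and 24.1% of all genes.

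The step from MEF_ciEPC to MEF_ciHep stood out by direction. It called 18 members higher and 2 lower, against 18.7% and 13.8% of all genes (32.5% in either direction), and the median log2 fold change was 1.22 over the tested members and -0.02 over all tested genes. With limma on log2(TPM + 1), 13 members were called in that step, 10 higher and 3 lower, and 26.9% of all genes. From MNF_ciEPC to MNF_ciHep the test called 11 members higher and 5 lower, against 20.2% and 11% of all genes (31.2% in either direction), with a median log2 fold change of 0.35 over members and 0.05 over all genes, and 10 of the 27 members then tested (5 higher, 5 lower) and 31.9% of all genes when only these groups entered the fit. Against pHep, MEF_ciHep had 9 members higher and 9 lower (background 15.5% and 11.2%, 26.7% together), and MNF_ciHep had 3 higher and 15 lower (background 19% and 13.7%, 32.7% together). With a minimum count of 50 only 30 members could be tested in the first comparison, and 11 were called (28.3% of all genes). With only the compared groups in the fit 31 members could be tested in the second, and 11 were called (25.6% of all genes). MNF_ciHep against MEF_ciHep gave 5 higher and 17 lower (background 18.3% and 16.4%, 34.7% together). MEF_ciEPC against ESC_EPC gave 7 higher and 9 lower (background 17.8% and 17.2%, 35% together). Of the 41 tested members, 37 (90.2%) were called in at least 1 of these 9 comparisons, against 82.7% of all tested genes, and 4 in none. Comparisons that name a common group share its libraries.

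Of the sterol efflux members, Abcg1 differed between the ciHep groups and the Abca1 levels of these groups overlapped. Abca1 (chr4:53030787-53159895), which loads cholesterol and phospholipid onto apolipoprotein A-I, had 237 and 213 CPM in the neonatal fibroblasts (MNF) and 38.4, 36.3 and 42.7 CPM in MEF. Its level was 20.8 to 128 (median 61.5) CPM in MEF_ciEPC, 34.7 and 15.3 CPM in MNF_ciEPC, 32.4 and 26.8 CPM in ESC and 30.7 and 27.1 CPM in ESC_EPC. MEF_ciHep had 291, 108 and 173 CPM, MNF_ciHep 133 and 118 CPM and pHep 127 and 214 CPM. The 2 MNF libraries lay above all 3 MEF libraries, both MNF_ciHep libraries lay above both MNF_ciEPC libraries, and MEF_ciHep and pHep overlapped. Abca1 fell 8.82-fold from MNF to MNF_ciEPC (log2 fold change -3.14 ± 0.41, adjusted p = 9.16e-06) and rose 4.87-fold from there to MNF_ciHep (log2 fold change 2.29 ± 0.4, adjusted p = 0.000333). The difference between origins in the step to ciEPC was itself called (difference in log2 fold change -3.89 ± 0.52, adjusted p = 0.000311). Without MNF_ciEPC replicate 1, log2 fold changes were -3.81 for Abca1 (MNF_ciEPC against MNF), 2.95 for Abca1 (MNF_ciHep against MNF_ciEPC) and -4.62 for Abca1 (difference between origins, step to ciEPC).

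Abcg1 (chr17:31057675-31117988), which exports cholesterol to lipoprotein particles, separated MEF_ciHep from both MNF_ciHep and pHep. It had 101, 94.4 and 128 CPM in MEF_ciHep, 1.92 and 0.592 CPM in MNF_ciHep and 1.77 and 4.29 CPM in pHep. The fibroblasts had 10, 2.67 and 8.15 CPM (MEF) and 6.01 and 8.96 CPM (MNF), and the ciEPCs 1.92 to 31.7 (median 4.84) CPM (MEF_ciEPC) and 1.26 and 0.9 CPM (MNF_ciEPC). ESC had 30.8 and 25.5 CPM and ESC_EPC 66.5 and 60.4 CPM. Every MEF_ciHep library lay above every library of the other 8 groups, and ESC_EPC came next. The level rose 11.6-fold from MEF_ciEPC to MEF_ciHep (log2 fold change 3.54 ± 0.38, adjusted p = 2.85e-06), was 37.3-fold higher in MEF_ciHep than in pHep (log2 fold change 5.22 ± 0.5, adjusted p = 1.19e-06) and 75.3-fold lower in MNF_ciHep than in MEF_ciHep (log2 fold change -6.23 ± 0.54, adjusted p = 4.31e-07). Its close relative Abcg4 (chr9:44273188-44288615), best known from brain, ran the other way. It had 3.57 to 19.8 (median 8.68) CPM in MEF_ciEPC, 6.28 and 6.12 CPM in MNF_ciEPC and 6.07 and 4.74 CPM in MNF_ciHep, against 0, 0.172 and 0.361 CPM in MEF_ciHep and 0.443 and 0 CPM in pHep. It rose from MEF to MEF_ciEPC (log2 fold change 3.5 ± 0.54, adjusted p = 5.79e-05) and fell from there to MEF_ciHep, where 2 counts remained (46.9-fold, with a 95% counting interval of 12.8 to 390, log2 fold change -5.43 ± 0.67, adjusted p = 9.96e-06). Without pHep replicate 2, the log2 fold change was 5.91 for Abcg1 (MEF_ciHep against pHep). Without MNF_ciHep replicate 1, the log2 fold change was -7.45 for Abcg1 (MNF_ciHep against MEF_ciHep). Without MEF replicate 2, the log2 fold change was 4.24 for Abcg4 (MEF_ciEPC against MEF).

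Abcg5 and Abcg8 encode the partner subunits of the transporter that secretes sterols into bile, and lie head to head on chromosome 17 (chr17:84658234-84683011, minus strand, and chr17:84676302-84700333, plus strand), with annotated transcripts that overlap in 3.02% and 2.19% of their exonic bases. The start regions are shown because the pair shares them. Each window below runs from 250 bases before the start of transcription to 50 after it (RefSeq, GRCm38.p6, written on the strand of the gene). The windows share 209 bases.
Abcg5, chr17:84682962-84683261, minus strand: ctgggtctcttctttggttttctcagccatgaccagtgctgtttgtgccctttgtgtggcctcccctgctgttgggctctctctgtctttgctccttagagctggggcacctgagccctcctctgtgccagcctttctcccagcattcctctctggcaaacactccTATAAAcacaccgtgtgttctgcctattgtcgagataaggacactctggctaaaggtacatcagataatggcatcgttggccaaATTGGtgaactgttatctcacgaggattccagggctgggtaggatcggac
Abcg8, chr17:84682871-84683170, plus strand: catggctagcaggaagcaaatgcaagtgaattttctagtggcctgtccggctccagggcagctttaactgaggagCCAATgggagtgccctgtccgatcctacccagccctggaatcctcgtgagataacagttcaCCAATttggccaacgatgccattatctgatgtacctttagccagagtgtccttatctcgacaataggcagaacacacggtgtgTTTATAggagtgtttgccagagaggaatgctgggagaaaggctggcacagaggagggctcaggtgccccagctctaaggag
Capitals mark 3 motifs on either strand. The CCAAT box was searched as CCAAT and is found in 37.4% of all 32851 windows of this length. The GC box was searched as GGGCGG and is found in 35.7% of the windows. The TATA box was searched as TATAAA and is found in 13.6% of them. Both windows shown hold a CCAAT box and a TATA box and neither holds a GC box. The TATA box is the same stretch of the genome in both (bases 167 to 172 of the Abcg5 window, 220 to 225 of the Abcg8 window). The CCAAT box of Abcg5 (bases 251 to 255, at its start of transcription) is the same stretch as bases 137 to 141 of the Abcg8 window. Abcg5 had 6.64 and 5.37 CPM in pHep and 1.42, 1.03 and 1.44 CPM in MEF_ciHep, and Abcg8 had 6.2 and 3.22 CPM and 0.473, 2.06 and 1.8 CPM. In MNF_ciHep they had 0.638 and 0 CPM and 0.319 and 0 CPM, and both were at 0 in MEF, MNF, MNF_ciEPC and ESC. Both pHep libraries lay above all others for both genes, at low depth. Abcg5 rested on 13 counts against 3 in MEF_ciHep and MEF_ciEPC and Abcg8 on 18 counts against 3. The kit and counting are not stated to keep strand, so reads from the overlap cannot be assigned to either gene with certainty.

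**Figure D3:**
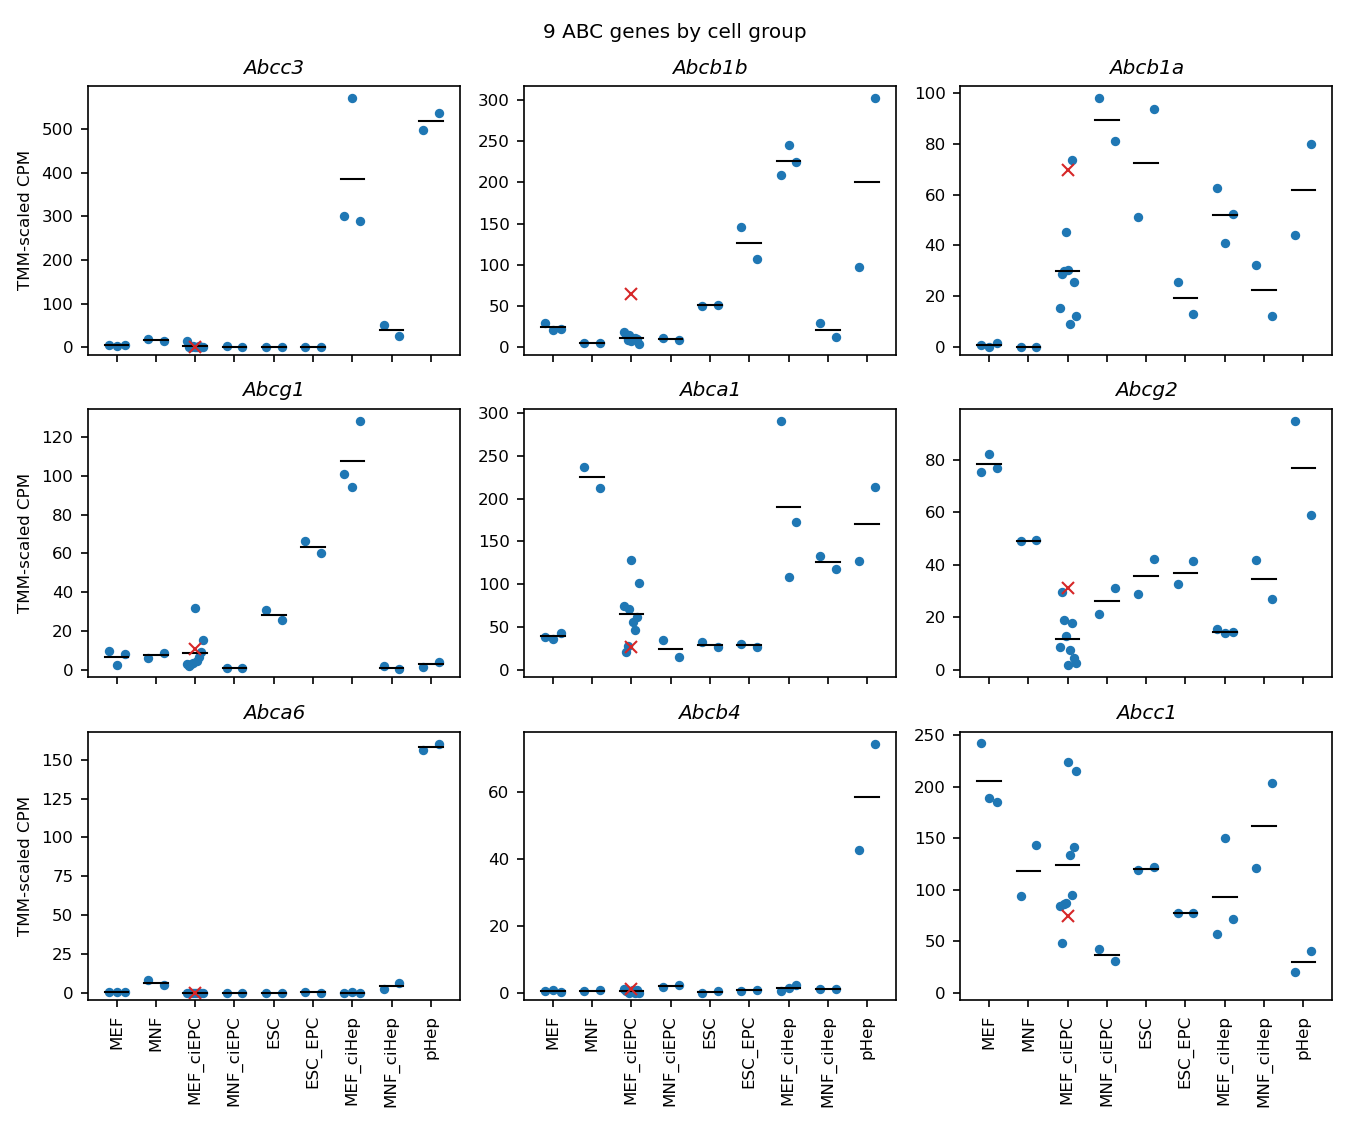
Each panel gives 1 member in TMM-scaled CPM (linear axis) by cell group, with a blue point for each library, a black line for the group mean and a red cross for the library labelled series 2 passage 22, which is in no mean. Abcc3 and Abcb1b are high in MEF_ciHep and pHep, Abcg1 in MEF_ciHep and ESC_EPC, and Abca6 and Abcb4 in pHep.

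Among the other lipid transporters of the A subfamily, Abca7 was highest in MEF_ciHep and Abca2 in pHep. Abca3 had its highest mean in pHep, with libraries that overlapped those of MEF_ciHep. Abca7 (chr10:79996494-80015572), a phospholipid transporter related to Abca1, had 189, 230 and 187 CPM in MEF_ciHep, 67.4 and 53.9 CPM in MNF_ciHep and 43.4 and 75.7 CPM in pHep. It had 14, 16.7 and 30.3 CPM in MEF, 42.7 and 30.1 CPM in MNF, 18.7 to 70.9 (median 41.7) CPM in MEF_ciEPC, 47.1 and 33.5 CPM in MNF_ciEPC, 40.6 and 36.9 CPM in ESC and 30 and 32.1 CPM in ESC_EPC. The 3 MEF_ciHep libraries stood above all others. Abca7 rose 4.43-fold from MEF_ciEPC (log2 fold change 2.15 ± 0.29, adjusted p = 2.22e-05) and was 3.51-fold higher than in pHep (log2 fold change 1.81 ± 0.3, adjusted p = 0.000181). Abca4 (chr3:122044443-122180123), the retinoid flippase of photoreceptors, rose in the same step at a lower level, with 11.3, 7.55 and 10.5 CPM in MEF_ciHep, 3.08 and 2.68 CPM in pHep and 0 to 1.02 (median 0.446) CPM in MEF_ciEPC (log2 fold change 4.69 ± 0.6, adjusted p = 1.4e-05). Its call against pHep (log2 fold change 1.77, adjusted p = 0.0186) was lost in 5 of 14 alternatives, among them the omission of either pHep library (adjusted p = 0.0847 and 0.106). Without MEF_ciEPC series 1, the log2 fold change was 5.78 for Abca4 (MEF_ciHep against MEF_ciEPC).

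Abca3 (chr17:24351950-24410201), which loads lung surfactant phospholipid into lamellar bodies, had 37.5, 38.2 and 44.6 CPM in MEF and 98.4 and 62.6 CPM in MNF, 58.4 to 195 (median 118) CPM in MEF_ciEPC and 135 and 158 CPM in MNF_ciEPC. ESC had 17.8 and 14.2 CPM and ESC_EPC 31.1 and 28.4 CPM. It had 207, 240 and 174 CPM in MEF_ciHep, 37.4 and 68.4 CPM in MNF_ciHep and 153 and 308 CPM in pHep. Thus the ciHep groups did not overlap. In mean, MEF_ciHep lay above its progenitors, with overlapping libraries and no call, and MNF_ciHep lay below its own. Abca3 rose 2.94-fold from MEF to MEF_ciEPC (log2 fold change 1.56 ± 0.28, adjusted p = 0.000271) and fell 2.89-fold from MNF_ciEPC to MNF_ciHep (log2 fold change -1.53 ± 0.32, adjusted p = 0.00149), and the change to ciHep differed by origin (difference in log2 fold change -2.35 ± 0.43, adjusted p = 0.00068). Of its exonic bases, 9.75% are shared with an opposite-strand transcript. Abca2 (chr2:25428703-25448540), a lysosomal lipid transporter best known from myelinating cells, had 16.4, 16.9 and 19.7 CPM in MEF, 57.1 and 48.4 CPM in MNF, 4.92 to 22 (median 12.5) CPM in MEF_ciEPC, 9.58 and 8.28 CPM in MNF_ciEPC, 25.8 and 26.3 CPM in ESC and 36 and 41.8 CPM in ESC_EPC. It had 18.9, 55.3 and 26.3 CPM in MEF_ciHep, 7.66 and 5.33 CPM in MNF_ciHep and 57.5 and 87.5 CPM in pHep. MNF_ciHep lay under every library of MEF_ciHep and pHep. It was 10.6-fold lower there than in pHep (log2 fold change -3.41 ± 0.45, adjusted p = 2.68e-05), and Abca2 had fallen 5.8-fold from MNF to MNF_ciEPC (log2 fold change -2.54 ± 0.39, adjusted p = 5.36e-05). These folds rest on counts, and the estimated transcript length of Abca2 was 1679.5 and 1703.9 bases in MNF_ciHep and 3543.6 and 4318 in pHep. Mean TPM was 7.36 in MNF_ciHep, 30.5 in pHep and 4.76 in MNF_ciEPC. By TPM, MNF_ciHep thus lay above MNF_ciEPC, and by CPM below it. Abca12, the lipid transporter of skin, had 3.64 and 2.71 CPM in ESC_EPC and 3.41 and 1.78 CPM in MNF_ciHep, which overlapped, and less than 1 CPM in every other library. Without MNF_ciHep replicate 2, the log2 fold change was -2.12 for Abca3 (MNF_ciHep against MNF_ciEPC).

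The 5 genes of the Abca5 to Abca9 group, whose substrates are little known, stand in a row on the minus strand of chromosome 11 in the order Abca8b, Abca8a, Abca9, Abca6 and Abca5, with gaps of 4770 to 29788 bases. Of these, Abca9 had its highest mean in MNF and the other 4 in pHep. Abca6 (chr11:110176820-110251776) had 156 and 160 CPM in pHep, 2.36 and 6.51 CPM in MNF_ciHep and 8.16 and 4.91 CPM in MNF, against 0, 0.515 and 0 CPM in MEF_ciHep and 0.334, 0.445 and 0.281 CPM in MEF. All 9 MEF_ciEPC libraries and those of MNF_ciEPC and ESC were at 0, and ESC_EPC had 0.643 and 0.226 CPM. MEF_ciHep lacked the level of pHep, with 3 counts against 651 (546-fold, with a 95% counting interval of 186 to 2653, log2 fold change -9 ± 0.58, adjusted p = 2.1e-07). It was 38.8-fold lower in MNF_ciHep than in pHep (log2 fold change -5.28 ± 0.52, adjusted p = 6.55e-06). Without MEF_ciHep replicate 2, MEF_ciHep held 0 counts of Abca6. Without MNF_ciHep replicate 1, the log2 fold change was -4.57 for Abca6 (MNF_ciHep against pHep). Without MNF_ciHep replicate 2, the log2 fold change was -6.11 for Abca6 (MNF_ciHep against pHep).

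The next gene, Abca9 (chr11:110100749-110168196), was highest in the neonatal fibroblasts, with 49.2 and 40.3 CPM there and 0.668, 3.11 and 1.69 CPM in MEF. It had 4.03 and 2.37 CPM in MNF_ciHep, 0.443 and 2.15 CPM in pHep, 0, 0.172 and 0 CPM in MEF_ciHep and 0.214 and 0.226 CPM in ESC_EPC. Of the 9 MEF_ciEPC libraries 8 were at 0, and MNF_ciEPC and ESC were at 0. The MNF libraries stood above all others, and the fall to MNF_ciEPC was at least 175-fold when the MNF_ciEPC total is set at 3 counts (adjusted p = 1.69e-06). The fitted change has no finite counterpart, because MNF_ciEPC held 0 counts. Abca5 (chr11:110269369-110337716) was spread more widely, with 45.4, 28.3 and 40.4 CPM in MEF, 19.8 and 19.6 CPM in MNF, 5.2 to 26.8 (median 11.6) CPM in MEF_ciEPC, 13 and 7.38 CPM in MNF_ciEPC, 1.64 and 1.1 CPM in ESC and 6.22 and 7.24 CPM in ESC_EPC. It had 49.1, 19.2 and 43.7 CPM in MEF_ciHep, 13.4 and 20.7 CPM in MNF_ciHep and 34.1 and 55.8 CPM in pHep. Its libraries overlapped between MEF, MEF_ciHep and pHep. Abca8a and Abca8b are neighbouring paralogs whose reads may be split unevenly, which was not tested. Abca8b had 28.1 and 30.6 CPM and Abca8a 7.26 and 21.5 CPM in pHep, their highest group.

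**Figure D4:**
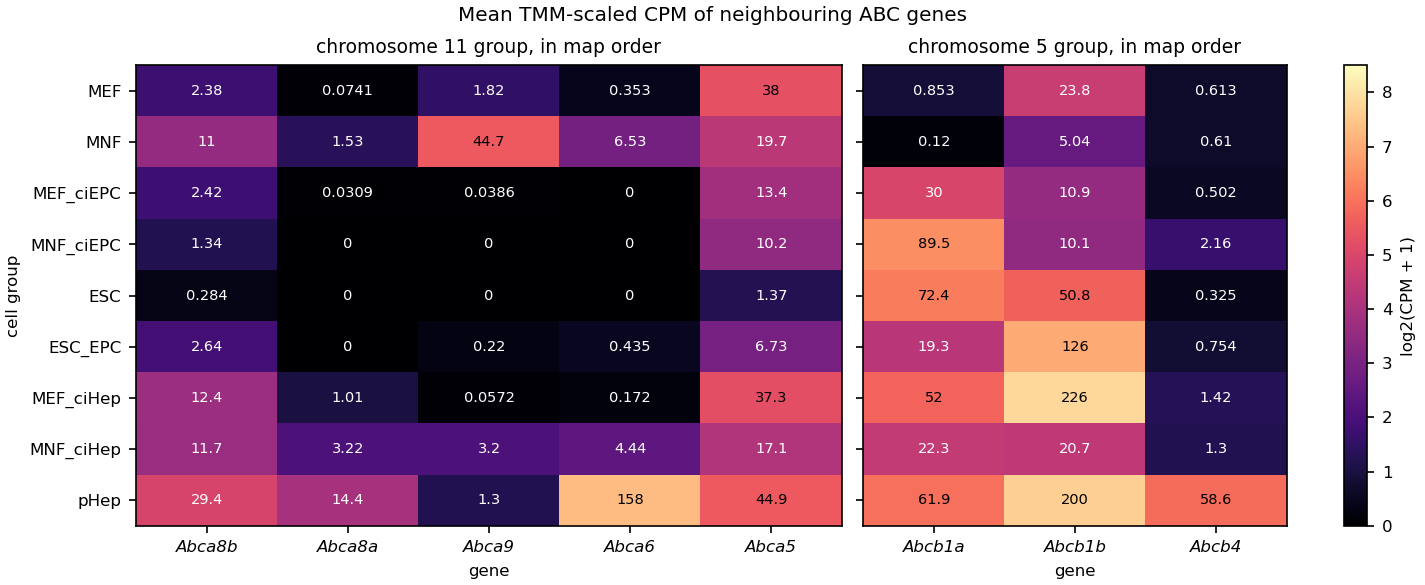
Cells give the mean TMM-scaled CPM of each gene (columns, in map order) in each of the 9 groups (rows), coloured by log2(CPM + 1), for the chromosome 11 row of 5 genes and the chromosome 5 row of 3. Abca9, at 44.7 CPM in MNF, lies beside Abca6, at 158 CPM in pHep, and the chromosome 5 genes each have their highest mean CPM in another group. By TPM, Abcb1a has its highest mean in ESC (80.6, against 41.3 in MNF_ciEPC). For Abcb1b, highest in mean in MEF_ciHep, the libraries of that group lie between those of pHep.

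The gene order Abcb1a, Abcb1b, Abcb4 on the plus strand of chromosome 5 joins both mouse copies of the drug efflux pump P-glycoprotein to the phosphatidylcholine flippase of the bile canaliculus. Abcb1a (chr5:8660077-8748575) was nearly silent in fibroblasts, with 0.755, 0.24 and 1.56 CPM in MEF and 0.24 and 0 CPM in MNF. It had 9.01 to 73.4 (median 28.6) CPM in MEF_ciEPC, 97.8 and 81.2 CPM in MNF_ciEPC, 51 and 93.8 CPM in ESC and 25.6 and 12.9 CPM in ESC_EPC. The ciHep groups had 62.7, 41 and 52.2 CPM (MEF_ciHep) and 32.4 and 12.3 CPM (MNF_ciHep), and pHep had 44 and 79.8 CPM. Every library of the other 7 groups lay above every fibroblast library. Abcb1a rose 36.4-fold from MEF to MEF_ciEPC (log2 fold change 5.19 ± 0.6, adjusted p = 3.43e-06) and in MNF_ciEPC, with 1074 counts against 1 in MNF (853-fold, with a 95% counting interval of 153 to 33741, log2 fold change 9.41 ± 0.86, adjusted p = 2.91e-07). It fell 3.94-fold from MNF_ciEPC to MNF_ciHep (log2 fold change -1.98 ± 0.46, adjusted p = 0.00299), and that step differed from the one of MEF origin (difference in log2 fold change -2.73 ± 0.62, adjusted p = 0.00312). Of its exonic bases, 10.09% are shared with an opposite-strand transcript. Without MEF replicate 3, the log2 fold change was 6.17 for Abcb1a (MEF_ciEPC against MEF). Without MNF replicate 1, MNF held 0 counts of Abcb1a. Without MNF replicate 2, the log2 fold change was 8.58 for Abcb1a (MNF_ciEPC against MNF). Without MNF_ciHep replicate 1, log2 fold changes were -2.98 for Abcb1a (MNF_ciHep against MNF_ciEPC) and -3.63 for Abcb1a (difference between origins, step to ciHep).

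Abcb1b (chr5:8798147-8866315) was low in the ciEPCs and high in MEF_ciHep. It had 209, 245 and 225 CPM in MEF_ciHep, 97.6 and 302 CPM in pHep and 29.5 and 12 CPM in MNF_ciHep. The ciEPCs had 3.88 to 17.9 (median 10.2) CPM (MEF_ciEPC) and 11.3 and 8.77 CPM (MNF_ciEPC), and the fibroblasts 29, 20.4 and 22.1 CPM (MEF) and 5.59 and 4.48 CPM (MNF). ESC had 50.2 and 51.3 CPM and ESC_EPC 146 and 107 CPM. By TPM the order of these 2 groups was the other way, with means of 73.8 in ESC and 65.2 in ESC_EPC. The estimated transcript length of Abcb1b was 1382.6 and 1431.3 bases in ESC and 4029.1 and 4146.3 in ESC_EPC. The MEF_ciHep libraries lay between the 2 pHep libraries and above every other library. Abcb1b rose 21.2-fold from MEF_ciEPC to MEF_ciHep (log2 fold change 4.4 ± 0.43, adjusted p = 1.2e-06), was 9.08-fold lower in MNF_ciHep than in pHep (log2 fold change -3.18 ± 0.45, adjusted p = 4.61e-05) and 11.8-fold lower in MEF_ciEPC than in ESC_EPC (log2 fold change -3.56 ± 0.43, adjusted p = 8.95e-06). The change to ciHep differed by origin (difference in log2 fold change -3.34 ± 0.61, adjusted p = 0.000639). Abcb1a and Abcb1b are close paralogs, so part of their reads may have been assigned to the wrong copy. Without MNF_ciHep replicate 1, log2 fold changes were -4.03 for Abcb1b (MNF_ciHep against pHep) and -4.22 for Abcb1b (difference between origins, step to ciHep). Without pHep replicate 2, the log2 fold change was -2.18 for Abcb1b (MNF_ciHep against pHep). With the library labelled series 2 passage 22, the log2 fold change was -2.97 for Abcb1b (MEF_ciEPC against ESC_EPC).

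Abcb4 (chr5:8893717-8959231) was near absent outside pHep. It had 42.7 and 74.4 CPM in pHep, against 0.477, 1.41 and 2.36 CPM in MEF_ciHep and 1.31 and 1.3 CPM in MNF_ciHep. It had 0 to 1.18 (median 0.551) CPM in MEF_ciEPC, 1.9 and 2.43 CPM in MNF_ciEPC, 0.668, 0.89 and 0.281 CPM in MEF, 0.47 and 0.751 CPM in MNF, 0 and 0.649 CPM in ESC and 0.6 and 0.907 CPM in ESC_EPC. No library outside pHep passed 2.43 CPM. MEF_ciHep was 37.5-fold lower than pHep (log2 fold change -5.23 ± 0.54, adjusted p = 2.6e-06) and MNF_ciHep 45.7-fold lower (log2 fold change -5.52 ± 0.68, adjusted p = 1.43e-05). The start regions of Abcb1b and Abcb4 are set side by side because these neighbours parted in MEF_ciHep, where Abcb1b reached the pHep range and Abcb4 did not.
Abcb1b, chr5:8797897-8798196, plus strand: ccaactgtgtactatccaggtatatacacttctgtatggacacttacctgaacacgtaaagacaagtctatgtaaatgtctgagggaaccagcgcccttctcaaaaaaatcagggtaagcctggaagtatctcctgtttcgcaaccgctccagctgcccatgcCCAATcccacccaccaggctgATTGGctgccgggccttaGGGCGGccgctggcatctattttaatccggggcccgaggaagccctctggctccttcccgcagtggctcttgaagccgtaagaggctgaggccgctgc
Abcb4, chr5:8893471-8893770, plus strand: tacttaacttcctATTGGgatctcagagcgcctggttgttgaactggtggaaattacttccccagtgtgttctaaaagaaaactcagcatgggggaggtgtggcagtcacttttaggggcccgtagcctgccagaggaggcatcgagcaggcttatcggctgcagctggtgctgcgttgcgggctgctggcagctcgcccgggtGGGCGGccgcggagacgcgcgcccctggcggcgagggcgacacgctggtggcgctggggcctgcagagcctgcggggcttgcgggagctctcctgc
The windows and capitals are as for Abcg5 and Abcg8. Both windows hold a CCAAT box and a GC box and neither holds a TATA box. Over the 36 members with a window in the table, 14 had a CCAAT box, 18 a GC box and 6 a TATA box in at least 1 of their 43 windows.

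Of the mitochondrial members, Abcb6 and Abcb8 passed the test as higher in ciEPCs than in fibroblasts of both origins and Abcb10 in neither. Abcb6 (chr1:75171717-75180392), a porphyrin transporter, had 13.4, 17.8 and 18.2 CPM in MEF, 16 and 13.9 CPM in MNF, 31.3 to 78.6 (median 55.1) CPM in MEF_ciEPC and 56.9 and 69.5 CPM in MNF_ciEPC. It had 16, 24.3 and 19.5 CPM in MEF_ciHep, 36.4 and 50.9 CPM in MNF_ciHep, 27.4 and 24.4 CPM in pHep, 20 and 18.7 CPM in ESC and 23.1 and 26 CPM in ESC_EPC. Every ciEPC library lay above every library of fibroblasts, ESC, ESC_EPC, MEF_ciHep and pHep. Abcb6 rose 3.35-fold from MEF (log2 fold change 1.74 ± 0.22, adjusted p = 6.79e-06) and 4.27-fold from MNF (log2 fold change 2.09 ± 0.25, adjusted p = 3.69e-06), and fell 2.71-fold from MEF_ciEPC to MEF_ciHep (log2 fold change -1.44 ± 0.21, adjusted p = 5.53e-05). A further gene model on the same strand, Gm29253, shares 55.16% of its exonic bases, so its counts are uncertain.

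Abcb8 (chr5:24393663-24410054), the ATP-binding subunit of a mitochondrial potassium channel, had 12.4, 24.9 and 16.3 CPM in MEF, 26.8 and 22.8 CPM in MNF, 39.8 to 67.4 (median 54.9) CPM in MEF_ciEPC and 86.4 and 86.4 CPM in MNF_ciEPC. It had 49.1, 55.5 and 46.5 CPM in MEF_ciHep, 29 and 21.3 CPM in MNF_ciHep, 28.3 and 24.7 CPM in pHep, 36.5 and 37 CPM in ESC and 39 and 50 CPM in ESC_EPC. The MNF_ciEPC libraries were the highest, and no ciEPC library overlapped the fibroblasts. It rose 3.06-fold from MEF (log2 fold change 1.61 ± 0.22, adjusted p = 1.56e-05) and 3.52-fold from MNF (log2 fold change 1.82 ± 0.24, adjusted p = 1.19e-05), and fell 3.46-fold from MNF_ciEPC to MNF_ciHep (log2 fold change -1.79 ± 0.25, adjusted p = 4.95e-05). The change to ciHep differed by origin (difference in log2 fold change -1.67 ± 0.33, adjusted p = 0.00115).

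Abcb10 (chr8:123952459-123983122), an inner membrane transporter tied to haem synthesis, had 59.7, 45.3 and 44.9 CPM in MEF, 35.9 and 33.5 CPM in MNF, 26.7 to 44.2 (median 35.6) CPM in MEF_ciEPC, 45.9 and 61 CPM in MNF_ciEPC, 32.4 and 26.6 CPM in ESC and 39.4 and 37.3 CPM in ESC_EPC. It had 71.5, 68.7 and 47.2 CPM in MEF_ciHep, 20.1 and 19.5 CPM in MNF_ciHep and 26.8 and 18.3 CPM in pHep. All MEF_ciHep libraries lay above both pHep and both MNF_ciHep libraries. Abcb10 was 2.83-fold higher in MEF_ciHep than in pHep (log2 fold change 1.5 ± 0.24, adjusted p = 0.000153), and fell 2.75-fold from MNF_ciEPC to MNF_ciHep (log2 fold change -1.46 ± 0.25, adjusted p = 0.000314). The change to ciHep differed by origin (difference in log2 fold change -2.29 ± 0.33, adjusted p = 0.000104). Abcb9 (chr5:124061530-124095798), a lysosomal peptide transporter, had 18.2, 16.3 and 10.2 CPM in MEF_ciHep and 11 ± 3.47 (SD, n = 2) CPM in ESC_EPC, and pHep had 1.39 and 1.66 CPM (log2 fold change 3.38 ± 0.59, adjusted p = 0.000304 for MEF_ciHep against pHep).

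In the C subfamily, whose multidrug resistance proteins export conjugated and other organic anions, Abcc3 had the largest fitted change of the family in the step from MEF_ciEPC to MEF_ciHep. Abcc3 (chr11:94343295-94392997), a basolateral exporter of bile salts and glucuronides, had 300, 571 and 289 CPM in MEF_ciHep, 499 and 538 CPM in pHep and 51.7 and 26.1 CPM in MNF_ciHep. It had 0 to 14 (median 0.278) CPM in MEF_ciEPC, 1.57 and 1.08 CPM in MNF_ciEPC, 4.34, 2.67 and 5.06 CPM in MEF, 18 and 14.3 CPM in MNF, 0.41 and 0.158 CPM in ESC and 1.07 and 0.452 CPM in ESC_EPC. MEF_ciHep and pHep overlapped, MNF_ciHep stood between them and the rest, and no other library passed 18 CPM. Abcc3 rose 179-fold from MEF_ciEPC to MEF_ciHep (log2 fold change 7.49 ± 0.53, adjusted p = 6.74e-08) and 28.5-fold from MNF_ciEPC to MNF_ciHep (log2 fold change 4.83 ± 0.58, adjusted p = 1.43e-05). MNF_ciHep remained 12.8-fold below pHep (log2 fold change -3.68 ± 0.44, adjusted p = 1.11e-05). Without the series 1 passage 2 library, the log2 fold change was 9.08 for Abcc3 (MEF_ciHep against MEF_ciEPC). Without MEF_ciEPC series 1, the log2 fold change was 9.3 for Abcc3 (MEF_ciHep against MEF_ciEPC). Without MNF_ciHep replicate 1, log2 fold changes were 4.12 for Abcc3 (MNF_ciHep against MNF_ciEPC) and -4.29 for Abcc3 (MNF_ciHep against pHep).

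**Figure D5:**
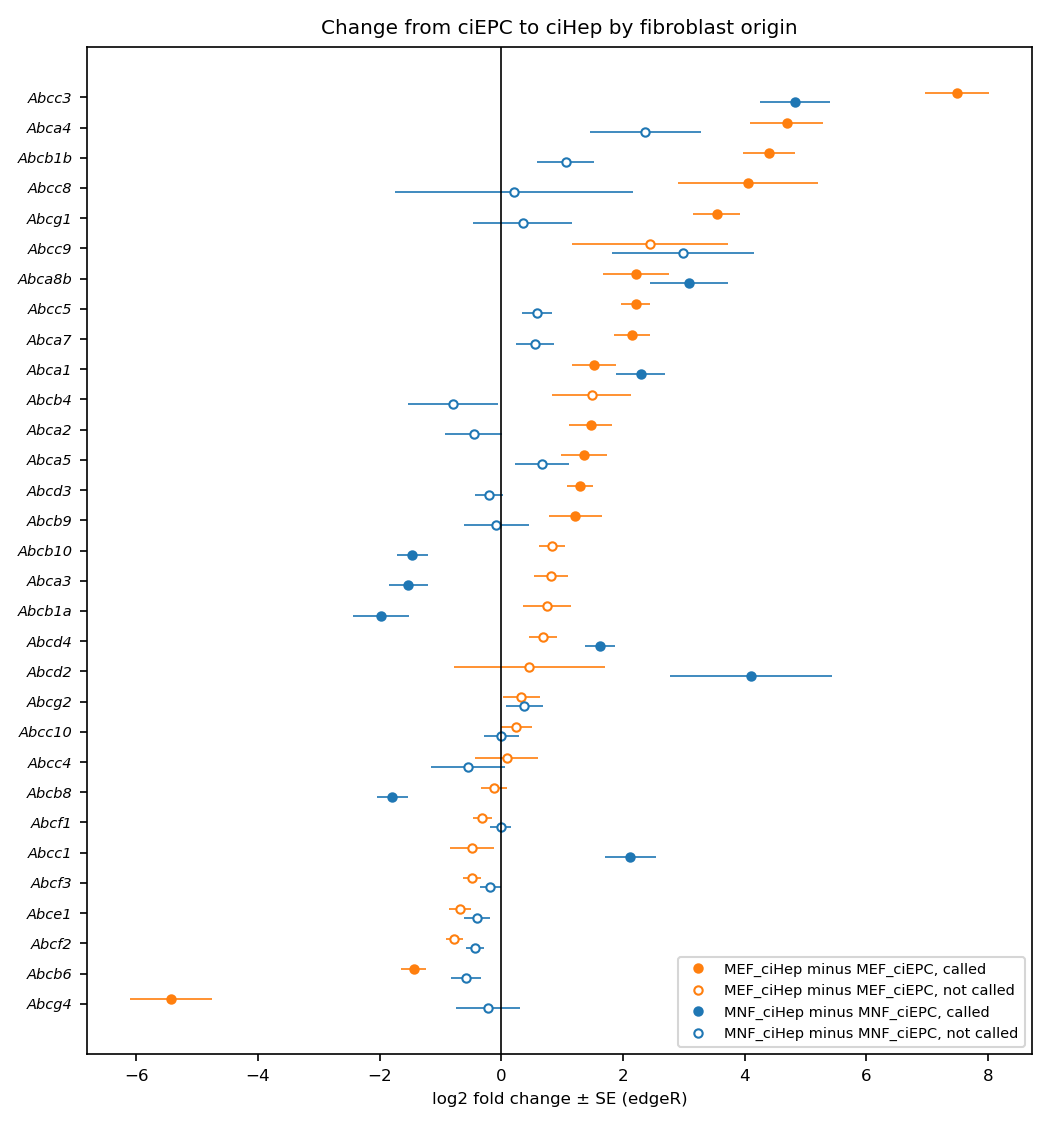
Rows are 31 tested members for which a fold could be formed in both steps, ordered by their change in MEF origin, and points give the log2 fold change from ciEPC to ciHep with bars of 1 standard error, orange for MEF origin and blue for MNF origin. Filled points passed the test and open points did not. Abcc3 heads the plot at 7.49 (MEF origin) and 4.83 (MNF origin), and Abcc1, Abcb8, Abcb10 and Abca3 are filled in blue and open in orange.

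Abcc1 (chr16:14361558-14475737), a glutathione conjugate exporter of most proliferating cells, had 242, 189 and 185 CPM in MEF, 93.5 and 143 CPM in MNF, 48.4 to 224 (median 94.8) CPM in MEF_ciEPC and 42.1 and 30.6 CPM in MNF_ciEPC. It had 56.9, 150 and 71.5 CPM in MEF_ciHep, 121 and 203 CPM in MNF_ciHep, 20.2 and 40.5 CPM in pHep, 119 and 122 CPM in ESC and 77.6 and 77.2 CPM in ESC_EPC. Both pHep libraries lay below every library outside MNF_ciEPC. Abcc1 fell 3.21-fold from MNF to MNF_ciEPC (log2 fold change -1.68 ± 0.41, adjusted p = 0.0026) and rose 4.33-fold to MNF_ciHep (log2 fold change 2.12 ± 0.42, adjusted p = 0.000889), which left MNF_ciHep 5.42-fold above pHep (log2 fold change 2.44 ± 0.45, adjusted p = 0.00046). The change to ciHep differed by origin (difference in log2 fold change 2.59 ± 0.54, adjusted p = 0.00187).

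Abcc4 (chr14:118482692-118706219), a basolateral exporter of cyclic nucleotides and bile salts, had 11.3 ± 1.97 (SD, n = 3) CPM in MEF and 25.1 and 25.8 CPM in MNF. It had 37.5 to 208 (median 94.2) CPM in MEF_ciEPC, 67.7 and 73.3 CPM in MNF_ciEPC, 98 and 116 CPM in ESC and 27.4 and 21.3 CPM in ESC_EPC. It had 122, 189 and 81.2 CPM in MEF_ciHep, 45.6 and 53.3 CPM in MNF_ciHep and 19.9 and 186 CPM in pHep. All MEF_ciEPC libraries lay above all MEF libraries, and the 2 pHep libraries lay far apart. Abcc4 rose 11-fold from MEF to MEF_ciEPC (log2 fold change 3.46 ± 0.58, adjusted p = 0.000129).

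Abcc5 (chr16:20331303-20426394), a haem and nucleotide analogue exporter, had 65.8, 81.2 and 91.6 CPM in MEF, 194 and 169 CPM in MNF, 44.5 to 102 (median 64.2) CPM in MEF_ciEPC and 77.3 and 87.9 CPM in MNF_ciEPC. It had 235, 432 and 271 CPM in MEF_ciHep, 131 and 123 CPM in MNF_ciHep, 129 and 141 CPM in pHep, 211 and 212 CPM in ESC and 94.5 and 86.6 CPM in ESC_EPC. Every MEF_ciHep library lay above every other library. It rose 4.63-fold from MEF_ciEPC to MEF_ciHep (log2 fold change 2.21 ± 0.24, adjusted p = 3.41e-06), fell 2.39-fold from ESC to ESC_EPC (log2 fold change -1.26 ± 0.25, adjusted p = 0.000795), and the change to ciHep differed by origin (difference in log2 fold change -1.62 ± 0.34, adjusted p = 0.00191). Abcc10 (chr17:46303221-46328352), a broad drug exporter, had 8.01, 9.79 and 8.15 CPM in MEF, 18.9 and 15.8 CPM in MNF, 17.8 to 33.5 (median 22.6) CPM in MEF_ciEPC, 24.2 and 24.9 CPM in MNF_ciEPC, 14.9 ± 1.9 (SD, n = 2) CPM in ESC and 8.36 and 16.3 CPM in ESC_EPC. It had 32.6, 32.8 and 25.6 CPM in MEF_ciHep, 27.8 and 21.9 CPM in MNF_ciHep and 14.6 and 22.5 CPM in pHep. MEF was the one group with all libraries under 10 CPM, and the rise to MEF_ciEPC was 2.95-fold (log2 fold change 1.56 ± 0.27, adjusted p = 0.000166).

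Abcc6 (chr7:45967555-46030302), the hepatic transporter whose loss causes ectopic mineralization, had 12.8 and 18.3 CPM in pHep and at most 0.82 CPM in the libraries of the other 8 groups, with 1.49 CPM in the library kept apart. Of the sulfonylurea receptor subunits of ATP-sensitive potassium channels, Abcc8 had 10.3 and 8.14 CPM in ESC_EPC and 1.89, 15.1 and 1.08 CPM in MEF_ciHep, where 1 library held most of it. Abcc9 had 17.6 and 7.95 CPM in the MNF libraries and 1.89, 6.37 and 2.54 CPM in MEF, and fell from MNF to MNF_ciEPC, where 3 counts remained (49.9-fold, with a 95% counting interval of 16.7 to 245, log2 fold change -5.48 ± 1.05, adjusted p = 0.00043). Abcc12, of no settled substrate, had at most 4.1 CPM in every library. Without MNF replicate 1, the log2 fold change was -4.78 for Abcc9 (MNF_ciEPC against MNF). Without MNF_ciEPC replicate 1, the log2 fold change was -4.43 for Abcc9 (MNF_ciEPC against MNF). Without MNF_ciEPC replicate 2, MNF_ciEPC held 0 counts of Abcc9.

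Of the peroxisomal fatty acid transporters Abcd2 and Abcd3 and the lysosomal cobalamin transporter Abcd4, Abcd3 was higher in MEF_ciHep and pHep than in every other group. Abcd3 (chr3:121758774-121815302) had 193, 240 and 147 CPM in MEF_ciHep, 146 and 173 CPM in pHep and 63.8 and 93 CPM in MNF_ciHep. It had 54.5 to 111 (median 79.6) CPM in MEF_ciEPC, 88.9 and 85.4 CPM in MNF_ciEPC, 62.4, 67.8 and 72.7 CPM in MEF, 93 and 89.4 CPM in MNF, 64 and 53.1 CPM in ESC and 26.2 and 24.2 CPM in ESC_EPC. The MEF_ciHep and pHep libraries overlapped and ESC_EPC lay below all others. Abcd3 was 3.14-fold higher in MEF_ciEPC than in ESC_EPC (log2 fold change 1.65 ± 0.24, adjusted p = 4.84e-05) and 2.53-fold lower in MNF_ciHep than in MEF_ciHep (log2 fold change -1.34 ± 0.22, adjusted p = 0.000148).

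Abcd4 (chr12:84601464-84617413) had 14.6, 18.7 and 18.5 CPM in MEF, 22 and 25.1 CPM in MNF, 7.55 to 26.8 (median 12.9) CPM in MEF_ciEPC, 12.9 and 11.2 CPM in MNF_ciEPC, 34.8 and 29.9 CPM in ESC and 39.7 and 40.9 CPM in ESC_EPC. It had 18.6, 21.9 and 33.3 CPM in MEF_ciHep, 34 and 42.2 CPM in MNF_ciHep and 17.8 and 20.7 CPM in pHep. Both MNF_ciHep libraries lay above both MNF_ciEPC libraries, and the rise was 3.07-fold (log2 fold change 1.62 ± 0.25, adjusted p = 0.000132). Abcd2 was at a low level, with 0 and 8.46 CPM in pHep, 0.378, 0.506 and 0.44 CPM in MEF_ciHep and 4.49 and 5.7 CPM in MNF. The 2 pHep libraries lay on either side of MEF_ciHep.

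Abce1, a ribosome recycling factor, and Abcf1, Abcf2 and Abcf3, relatives that bind ribosomes, passed the test in none of the 9 comparisons. Mean Abce1 levels ran from 131 CPM in MEF_ciHep to 333 CPM in ESC_EPC, Abcf1 from 128 CPM in MNF to 221 CPM in ESC and MNF_ciHep, and Abcf2 from 87.1 CPM in MNF to 196 CPM in ESC. Abcf3 ran from 39.3 CPM in ESC_EPC to 80.9 CPM in MNF_ciEPC. For Abce1 and Abcf2 the difference between origins in the step to ciEPC was called (0.94 for Abce1, and for Abcf2 a difference in log2 fold change 0.9 ± 0.2, adjusted p = 0.00698). The Abce1 call was lost in 10 of 19 alternatives, and with the 9 MEF_ciEPC libraries as separate samples the adjusted p of Abcf2 was 0.102.

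Abcg2 (chr6:58584523-58695676), the breast cancer resistance protein, which exports drugs and urate, had 75.5, 82.1 and 77 CPM in MEF, 49.2 and 49.3 CPM in MNF, 2.02 to 29.6 (median 8.75) CPM in MEF_ciEPC and 21.4 and 31.3 CPM in MNF_ciEPC. It had 15.6, 13.9 and 14.4 CPM in MEF_ciHep, 41.7 and 27.2 CPM in MNF_ciHep, 94.7 and 59 CPM in pHep, 29.1 and 42.1 CPM in ESC and 32.6 and 41.4 CPM in ESC_EPC. All MEF libraries lay above all MEF_ciEPC libraries, and MEF_ciHep stayed within the MEF_ciEPC range. Abcg2 fell 6.71-fold from MEF to MEF_ciEPC (log2 fold change -2.75 ± 0.3, adjusted p = 1.87e-06) and was 5.13-fold lower in MEF_ciHep than in pHep (log2 fold change -2.36 ± 0.29, adjusted p = 1.29e-05).

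The difference between MNF and MEF origin was tested as an interaction, with an adjusted p under 0.05 as the only criterion. In the step to ciEPC it was called for 11 of 41 members, 5 positive and 6 negative, against 19% of all genes (8.87% and 10.1%). That count was 7 with the 9 MEF_ciEPC libraries as separate samples (15.1% of all genes). It fell to 7 without MEF replicate 1, to 6 without MNF replicate 2, MEF_ciEPC series 2 or MNF_ciEPC replicate 1, to 5 without MNF replicate 1 and to 4 without MNF_ciEPC replicate 2, while the share of all genes called was 9.63 to 18.6% over the fits without 1 replicate. In the step to ciHep it was called for 17 members, 4 positive and 13 negative, against 33% of all genes (18.9% and 14.1%). The step to ciEPC sets MNF_ciEPC, of 1 length class with its fibroblasts, against MEF_ciEPC, of another class than MEF, and the step to ciHep crosses classes in MNF origin only. Origin and library type cannot be told apart in these interactions.

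Regulators and partners of the family, listed by name, moved as follows. Of 10 tested regulators (of 11), 7 rose and 0 fell from MEF_ciEPC to MEF_ciHep (18.7% and 13.8% of all genes), among them the pregnane X receptor Nr1i2 (log2 fold change 5.85 ± 0.86, adjusted p = 0.000166), the liver X receptor Nr1h3 (2.45 ± 0.51, adjusted p = 0.000939) and Hnf4a (2.1 ± 0.37, adjusted p = 0.00049), a hepatocyte transcription factor. From MNF_ciEPC to MNF_ciHep 3 rose and 2 fell, near the shares of all genes (20.2% and 11%). These were the aryl hydrocarbon receptor Ahr (5.4 ± 0.47, adjusted p = 1.02e-06) with Nr1h3 and the shared partner Rxra, which rose, and Hnf4a (-2.73 ± 0.5, adjusted p = 0.0009) and Ppara (-2.81 ± 1.03, adjusted p = 0.0397), which fell. Against pHep, 7 of the 10 were lower in MEF_ciHep and 7 in MNF_ciHep (11.2% and 13.7% of all genes), and 0 were higher in either. The bile acid receptor Nr1h4 was lower in both (-5.24 ± 0.72, adjusted p = 9.89e-05 and -6.14 ± 0.96, adjusted p = 0.000247). From MEF_ciEPC to MEF_ciHep the median log2 fold change of the 10 was 1.89, against -0.02 over all tested genes, and from MNF_ciEPC to MNF_ciHep it was 1.54, against 0.05. Of 8 partners, 4 rose from MEF_ciEPC to MEF_ciHep and 0 fell (18.7% and 13.8% of all genes), with Apoa1, the acceptor of Abca1 cholesterol, at 9.5 ± 1.23, adjusted p = 4.19e-05. From MNF_ciEPC to MNF_ciHep 2 partners rose and 0 fell, against 20.2% and 11% of all genes. Of 5 tested hepatocyte uptake carriers (of 8), 4 were lower in MEF_ciHep than in pHep and 0 higher (11.2% and 15.5% of all genes), with Slco1b2 at -3.98 ± 0.79, adjusted p = 0.00302, and 2 were lower in MNF_ciHep than in pHep and 0 higher (13.7% and 19%). Of the 2 tested ABC genes with other names (of 3), the peptide transporter subunit Tap1 rose from MEF_ciEPC to MEF_ciHep (2.35 ± 0.35, adjusted p = 4.95e-05), where 18.7% of all genes rose. Both Tap1 (1.51 ± 0.38, adjusted p = 0.00452) and its partner Tap2 (1.83 ± 0.52, adjusted p = 0.0101) rose from MNF_ciEPC to MNF_ciHep, where 20.2% of all genes rose.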

How the data were processed

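Gene-level expected counts and TPM of 28 libraries were deposited by the authors, who made them with RSEM 1.2.4 on mm10, per the submitters' processing notes. The aligner and gene annotation release are not given in the sources used here. RNA was total RNA taken with Trizol and made into Illumina TruSeq libraries, per the labels' protocols. The members and gene lists were chosen with earlier results of these data known.

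Expected counts were rounded to whole numbers and fitted with edgeR 4.0.16 (R 4.3.3) by the quasi-likelihood test, with TMM scaling and filterByExpr at a minimum count of 10. The fit held 20 samples of 9 groups and 16055 genes. The MEF_ciEPC libraries were summed into 2 series, leaving out the library labelled series 2 passage 22. Adjusted p-values are Benjamini-Hochberg over all 16055 genes, and a gene was called where it changed at least 2-fold at an adjusted p under 0.05, or by adjusted p alone for interactions. The common biological coefficient of variation was 0.229. Levels per library are TMM-scaled CPM, computed here from the deposited counts. A fold against a group without counts set that group's total at 3 counts (the floor), and ratios with 1 to 3 counts carry exact 95% intervals that cover counting error only.

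Any member may be named, and the 24 called in at least 1 comparison with a mean of at least 20 CPM in the higher group are given in full, except 2 members that enter the counts and sums but are not reported here. Alternatives were DESeq2 1.42.0, limma 3.58.1 on log2(TPM + 1), RLE scaling, other count filters, a replicate block, other uses of the MEF_ciEPC libraries, a fit of the compared groups only and each replicate left out. The test was checked on simulated counts with known changes, for MEF_ciEPC against MEF, MEF_ciHep against pHep and MNF_ciHep against MNF_ciEPC in turn. It recovered 15 of 73, 21 of 68 and 14 of 64 changes of 2-fold. Of 4-fold changes it recovered 49 of 65, 40 of 56 and 43 of 67, and of 8-fold changes 53 of 62, 69 of 76 and 58 of 69. False calls numbered 4, 5 and 5. Median log2 estimates for the 2-fold changes were 1, 1.01 and 0.99. A call needs an estimate of at least 2-fold, so many of the misses at 2-fold follow from that limit. The simulated counts held no other group differences, unlike the data, so these recoveries are not rates for the data. A gene not called may still differ. Gene positions are from GENCODE M21, which matched all 48 members, and start windows from RefSeq on GRCm38.p6, which held 36 of them. Columns of both tables were matched to samples by name.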

Additional observations from a re-analysis of the deposited data

Results flagged for a closer look

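Among the 9 MEF_ciEPC libraries, 25 members were examined for a library standing apart from the rest by Dixon's criterion (critical value 0.493), which chance passes in about 1 of 20 groups, and 1 member met it. Abcg1 had 31.7 CPM in series 1 passage 10.

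The change from fibroblast to ciEPC differed between origins, tested as an interaction (MNF minus MEF, log2 scale), for 11 members. The difference was -3.89 for Abca1, -2.04 for Abca2, -3.1 for Abca8b, -2.28 for Abcb9, -2.69 for Abcc3 and -3.2 for Abcg1. It was 2.17 for Abcb1b, 1.14 for Abcb10, 0.94 for Abce1, 0.9 for Abcf2 and 1.86 for Abcg2. Abca1 kept its call in all 19 alternatives run. The call was lost in 11 of them for Abcc3, in 10 for Abce1, in 8 each for Abcb1b and Abcb9, in 5 for Abcb10, in 4 for Abca8b, in 3 for Abca2 and in 1 each for Abcg1, Abcf2 and Abcg2. For Abcc3 the difference was -1.1 (edgeR adjusted p = 0.397) without the series 1 passage 2 library and -0.83 (adjusted p = 0.759) without series 1, and for Abcb1b it was 1.58 (adjusted p = 0.109) with the library labelled series 2 passage 22.

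The change from ciEPC to ciHep was called as different between origins for 17 members. The difference was -1.93 for Abca2, -2.35 for Abca3, -1.59 for Abca7, -2.73 for Abcb1a, -3.34 for Abcb1b, -1.67 for Abcb8 and -2.29 for Abcb10. It was -2.65 for Abcc3, -1.62 for Abcc5, -1.49 for Abcd3 and -3.2 for Abcg1. It was positive for Abcc1 (2.59), Abcd4 (0.94), Abcg4 (5.21) and Abcc12, for which the fitted 8.23 has no finite counterpart because a group held 0 counts. The Abcd4 call was lost in 15 of 19 alternatives, RLE scaling and most fits without 1 replicate among them (highest edgeR adjusted p = 0.176). Calls were lost in 5 of 19 for Abcc3 and Abca2, in 2 of 19 for Abcg1 and in 1 of 17 for Abcc12, and the other members named here kept theirs in every alternative that could be run. Origin, strain and library type cannot be told apart in these differences.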

How the results depend on the processing

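Of 184 called changes of single members, 100 kept their call under every alternative that could be run and 84 lost it under at least 1. Limma on log2(TPM + 1) was weaker for 43 of 179, the 9 MEF_ciEPC libraries as separate samples for 25 of 182, and the fits without 1 replicate in 180 of 952 instances. The sign turned in 2 cases, both of which enter the counts of called members. Abcb1b from ESC to ESC_EPC had -0.19 with limma on log2(TPM + 1). Its estimated transcript length differed between these groups, as given above, and the part of that length in the turn was not tested. Abcd2 in MEF_ciHep against pHep ran from -4.07 without pHep replicate 1 to 4.18 without pHep replicate 2. In the latter fit pHep held 0 counts of Abcd2, so the fitted 4.18 has no finite counterpart. Counts of called members left the range of the main count at limma for MEF_ciHep against MEF_ciEPC (13 in place of 20), at a minimum count of 50, where 30 members were tested, for MEF_ciHep against pHep (11 in place of 18) and with the 9 libraries apart for the interaction in the step to ciEPC (7 in place of 11). With only the compared groups fitted, they were 10 in place of 16 for MNF_ciHep against MNF_ciEPC and 11 in place of 18 for MNF_ciHep against pHep. Leaving out 1 replicate at a time gave 13 to 16 calls for MEF_ciEPC against MEF, 17 to 19 for MNF_ciEPC against MNF, 5 to 10 for ESC_EPC against ESC, 14 to 16 for MEF_ciEPC against ESC_EPC and 14 to 21 for MEF_ciHep against MEF_ciEPC. It gave 15 to 17 for MNF_ciHep against MNF_ciEPC, 14 to 16 for each ciHep group against pHep, 17 to 21 between the ciHep groups, 4 to 12 for the interaction in the step to ciEPC (6 without MEF_ciEPC series 2) and 12 to 17 for that in the step to ciHep. Where that leaves 1 sample in a group, it is assumed to vary like the others. The share of all tested genes called moved in these fits as well, so the ranges by themselves are no result about the members. Without the series 1 passage 2 library, an alternative chosen after seeing the data, 21 members were called from MEF_ciEPC to MEF_ciHep. The same fit called 5349 of all genes in that step, and the main fit 5213. The interaction in the step to ciEPC called 16 members and 3829 of all genes with DESeq2, where the main fit called 3046 genes. Same-numbered samples did not deviate together (73 pairs, r from -0.163 to 0.072). In a group of 2 samples the deviations from the mean mirror each other, so these pairs are not independent. For MEF_ciEPC the number is that of the series. Pairing by number was thus not seen, but is not excluded. The replicate block gave 16, 18, 12, 16 and 18 calls for MEF_ciEPC against MEF, MNF_ciEPC against MNF, ESC_EPC against ESC, MEF_ciEPC against ESC_EPC and MEF_ciHep against MEF_ciEPC. It gave 16, 15, 17 and 20 for MNF_ciHep against MNF_ciEPC, MEF_ciHep against pHep, MNF_ciHep against pHep and MNF_ciHep against MEF_ciHep, and 9 and 16 for the interactions. In the same order, the replicate block called 5306, 6465, 5320, 5474, 4853, 4881, 3951, 5062 and 5286 of all genes. For the interactions it called 2763 and 4842. The main fit called 5464, 6549, 5484, 5617, 5213, 5017, 4287, 5250 and 5576 of all genes, and 3046 and 5300 for the interactions. With RLE scaling the median of all genes moved to 0.12 (log2) for MNF_ciHep against MNF_ciEPC. Members with few counts, such as Abcg5, Abcg8 and Abcc12, are limited by depth.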
